A study of Mus musculus with 6 samples.

Results

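The genes described here are the mouse zinc finger protein genes whose symbol is Zfp followed by a number. They were taken by symbol alone, with no use of measured values, and 235 of the 12041 gene symbols in the deposited table carry such a name. RNA was sequenced from the cortex of C57BL/6 mouse embryos at embryonic day 12.5, in 3 wild-type libraries (WT; named HC-1, HC-8, HC-10) and 3 libraries from conditional knockouts of Hdac1 and Hdac2 together (Hdac1&2 cKO; HM-5, HM-13 and HM-16). HDAC1 and HDAC2 are histone deacetylases and serve as catalytic subunits of several corepressor complexes. The recombinase, its promoter, the alleles, and whether each library stands for its own embryo were not stated in the labels, so p-values measure only a spread between libraries that may be technical. The comparison asks how the transcripts of these genes differ when both deacetylases are lost in the developing brain.

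Most proteins with this name carry C2H2 zinc fingers, short folds that each hold a zinc ion between a pair of cysteines and a pair of histidines, and rows of fingers read DNA base by base. Many of them begin with a KRAB domain, which binds the corepressor TRIM28 (KAP1). TRIM28 brings in the histone methyltransferase SETDB1, heterochromatin proteins of the HP1 family and the deacetylase complex NuRD, which contains HDAC1 and HDAC2. KRAB zinc finger proteins are best known for silencing transposable elements and for guarding imprinted loci, and their genes often lie side by side as products of gene duplication. The name also covers proteins of other kinds, such as the CCCH proteins of the Zfp36 family, which mark AU-rich mRNAs for decay.

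The libraries held 9712556 to 11922665 reads in the rows of the table, as recovered from the deposited values. HM-13 stood apart, since ribosomal RNA (Rn45s) made up 29.7% of its reads, compared with 0.506% to 2.48% elsewhere. Transcripts of the targeted genes checked the labels. Hdac1 had 200.8 ± 9.82 FPKM in WT, against 51.3 ± 8.46 FPKM in cKO (mean ± SD, n = 3 each), and Hdac2 had 207 ± 69.2 and 48.9 ± 12.1 FPKM. FPKM is the number of fragments scaled to transcript length and to depth. Markers of projection neurons were present, with summed levels of 1018 to 1352 FPKM in the WT libraries and 755 to 1124 FPKM in the cKO libraries (none of the 6 was at 0). Other cells were present too. Summed markers of erythroid cells had 12655 to 16986 FPKM in WT and 14523 to 21700 FPKM in cKO. Those of meninges and mesenchyme had 208 to 455 FPKM in WT and 248 to 402 FPKM in cKO. In bulk tissue, fewer cells of a type and less RNA per cell cannot be told apart.

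The Zfp genes covered a wide span of levels, from 0.182 to 142.7 FPKM as the mean of all 6 libraries, with a median of 5.24 FPKM against 4.29 FPKM for all symbols. Of the 235 genes, 49 lay under 1 FPKM and 32 reached 20 FPKM. A test was made where at least 3 libraries reached 1 FPKM, which 190 Zfp genes met. The other 45 had means of at most 0.993 FPKM, and none of them was called when limma was run with no filter (3 had an unadjusted p under 0.05). Of the genes tested, 173 reached 1 FPKM in every library, 2 passed the filter through the WT libraries alone and 1 through the cKO libraries alone. Levels differed with the number of RefSeq mRNAs of a gene, and the part of read assignment in this was not tested. The 136 Zfp genes with a single RefSeq mRNA had a median of 7.66 FPKM and the 96 with more had 1.99 FPKM, and the same held for all symbols (10.4 and 1.90 FPKM).

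In the cKO cortex, 20 Zfp genes fell and 4 rose, out of 190 tested (limma on log2(FPKM + 1), Benjamini-Hochberg adjusted p under 0.05 over all genes tested). The fallen genes were 10.5% of those tested, where 8.39% of all genes tested were lower in cKO. The risen genes were 2.11%, where 9.62% of all genes tested were higher. In either direction, 18% of all genes tested were called. The changes were small: fallen genes kept 45.1% to 87.1% of their WT level, with a median change of 0.36 in size on the log2 scale, and with the pseudocount of 1 FPKM no Zfp gene tested changed by 1 or more on that scale (Zfp773 reached -1.13 with a pseudocount of 0.1 and -1.16 with voom on recovered reads). All 24 genes called had WT and cKO values that did not overlap. The 20 that fell lay below 0 under every one of 16 other settings and the 4 that rose lay above 0. Groups that do not overlap keep their sign when a library is left out or the pseudocount is changed. Those settings therefore could not reverse the direction. The calls were less stable. Leaving out HM-5 left 4 Zfp genes called lower and 0 higher, where 2.55% and 3.8% of all genes were called. Leaving out HM-16 left 6 and 0 (3.16% and 3.73% of all genes). Without HC-1, HC-8 or HC-10 there were 9 and 2 (4.43% and 7.36%), 13 and 3 (8.25% and 6.78%), or 8 and 1 (3.85% and 5.57%). Scaling to library totals left 1 and 0 (2.1% and 3.22%). Those totals count Rn45s, which made up 29.7% of the reads of HM-13, so this scaling lowers every HM-13 value against the other libraries. Over all genes, too, fewer were called in each of these fits, though lower calls without HC-8 only slightly so.

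The shift reached beyond the genes called. The log2 fold change was below 0 for 128 of 190 Zfp genes (67.4%), against 50.9% of the 9169 other genes tested, and its median was -0.09 against -0.01. In 64 Zfp genes (33.7%) every cKO value lay below every WT value, where 19.6% of all genes tested showed that order. In 16 Zfp genes (8.42%) every cKO value lay above, where 19.5% of all genes did. No library stood alone in this. The median deviation of Zfp genes from their own mean, on the log2 scale, was 0.07 in HC-1, 0.03 in HC-8 and 0.07 in HC-10, while it was -0.04 for HM-5 and HM-13 alike and -0.05 for HM-16. Between 58 and 78 of the 190 genes (30.5% to 41.1%) lay below their own mean in each WT library. Between 116 and 120 (61.1% to 63.2%) did so in each cKO library. Of the other genes tested, 46.6% to 53.5% lay below their own mean in the WT libraries and 46.1% to 52.5% in the cKO libraries. Their median deviation per library ran from -0.015 to 0.020. Without HM-13, 20 Zfp genes were called lower (8.79% of all genes) and 3 higher (11.2% of all genes), and 15 of the 20 that fell with all libraries were among them. Limma's voom on the recovered reads called 27 lower (9.26% of all genes) and 5 higher (11.2% of all genes), including all 24. Summed markers of radial glia, the progenitors of the cortex, did not overlap between the groups (2997 to 3275 FPKM in WT, 2471 to 2897 FPKM in cKO). Of these 7 genes 5 were tested and Fabp7 fell, the median log2 fold change of the tested ones was 0.22, and none was at 0. Summed markers of projection neurons, given above, and of intermediate progenitors (236 to 299 FPKM in WT, 175 to 239 FPKM in cKO) ran lower in cKO with overlapping ranges, and Btg2 fell among them. Their part in the Zfp values was not tested.

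**Figure D1:**
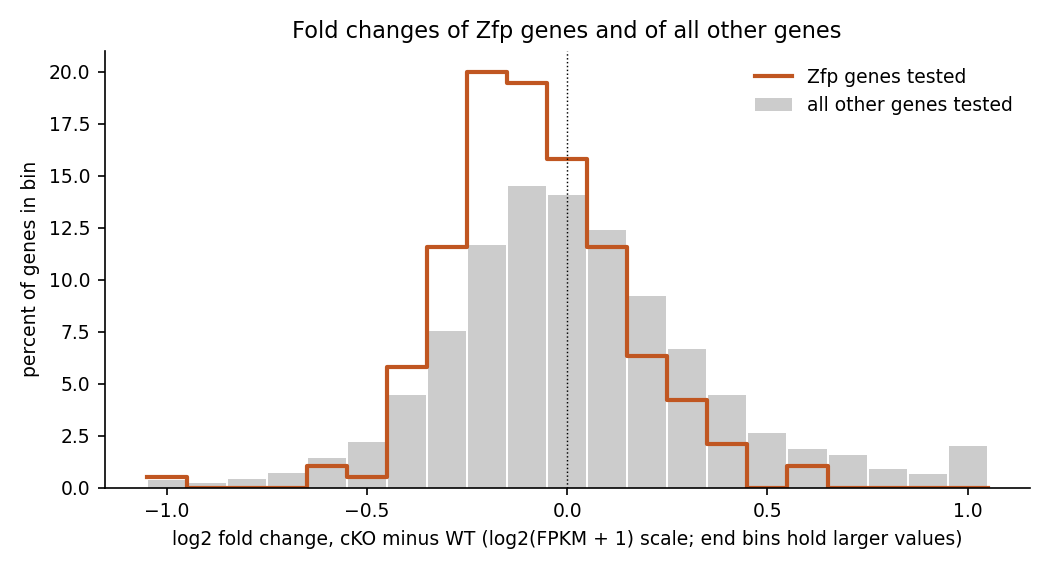
Percent of genes in each bin of log2 fold change (cKO minus WT, log2(FPKM + 1) scale), as a line for the 190 Zfp genes tested and as grey bars for the 9169 other genes tested. The line lies left of the bars, with medians of -0.09 and -0.01, and no Zfp gene lies at 1 or above.

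Zfp773, a KRAB protein with 8 fingers, showed the largest fall. Its gene lies on chromosome 7 (7127073 to 7136755, GRCm38, minus strand). Its level was 7.47, 6.49 and 7.63 FPKM in WT (values are always given in the order HC-1, HC-8, HC-10), against 2.75, 3.72 and 3.26 FPKM in cKO (in the order HM-5, HM-13, HM-16). The highest cKO value was well under the lowest WT value, on 94 to 254 reads per library. The mean in cKO was 45.1% of that in WT, with a log2 fold change of -0.95 (SE 0.13, limma adjusted p = 0.00441). The call held without any single library, and it was the only Zfp call that held when FPKM were scaled to library totals (adjusted p = 0.0017).

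Zfp260, Zfp207 and Zfp146 also kept their calls without any single library, and all lack a KRAB A box. Zfp260, a protein of 12 fingers, had 40.6, 36.3 and 36.8 FPKM in WT, against 23.8, 26.7 and 25.5 FPKM in cKO, which is 66.9% of the WT mean (log2 fold change -0.56, SE 0.08, limma adjusted p = 0.00458). Zfp207 encodes BuGZ, a microtubule- and BUB3-binding protein of the mitotic spindle, and had 45.3, 40.8 and 42.0 FPKM in WT, against 29.3, 32.1 and 28.6 FPKM in cKO (70.2% of the WT mean, log2 fold change -0.50, SE 0.07, adjusted p = 0.00603). The groups were apart in both genes by more than the range within either group. A second, lower row of Zfp207 with another transcript had means of 3.22 FPKM in WT, against 2.38 FPKM in cKO. Zfp146, whose protein consists of 10 fingers and little else, had 97.5, 89.6 and 93.6 FPKM in WT, against 72.3, 69.8 and 72.4 FPKM in cKO (76.4% of the WT mean, log2 fold change -0.38, SE 0.06, adjusted p = 0.00631). It had 1220 to 2319 reads per library, and its cKO values were nearly equal.

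The list of the 12 with the smallest p among the fallen genes held 8 others. Zfp418, a KRAB protein of 14 fingers, had 4.08, 4.01 and 4.45 FPKM in WT, against 2.52, 2.97 and 2.11 FPKM in cKO, which is 60.6% of the WT mean (log2 fold change -0.56, SE 0.13, adjusted p = 0.0229). Its groups did not overlap, but the call was lost in 4 of the 6 fits that left out a library. Zfp334 had 41.2 ± 1.74 FPKM in WT, against 32.2 ± 0.671 FPKM in cKO (78.1%, adjusted p = 0.0115), and its call was lost only without HM-5. Zfp638 encodes the nuclear protein NP220, which is known for silencing unintegrated retroviral DNA together with the HUSH complex. Its level was 30.6 ± 1.83 FPKM in WT, against 23.4 ± 0.683 FPKM in cKO (76.6%, adjusted p = 0.0141). Its 2 other rows were low and differed in direction, at 0.991 against 1.10 FPKM and 0.751 against 0.484 FPKM. The remaining 5 were Zfp35, Zfp930, Zfp866, Zfp101 and Zfp397, which kept 75.2% to 83.6% of their WT level with adjusted p from 0.0117 to 0.0243.

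The fallen genes included some with very even values within a group. Zfp101 had 26.4, 26.4 and 26.5 FPKM in WT, against 20.6, 22.4 and 20.7 FPKM in cKO (80.2% of WT, adjusted p = 0.0207). The WT values were almost equal, and every cKO value lay under them. Zfp157, Zfp229, Zfp459, Zfp74, Zfp748 and Zfp943 also fell; they lie outside the rule for named genes and are named after their values were seen. They kept 59.2% to 80.9% of WT, with adjusted p from 0.0361 to 0.046, and each lost its call in at least 5 of the 6 fits without a library. Zfp459 rested on 19 to 57 reads per library. KRAB zinc finger genes include close copies, and how reads shared by such copies or by overlapping genes were assigned is not given in the sources used here, so the split between neighbours such as Zfp942 and Zfp943 is uncertain.

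Only 4 Zfp genes rose, and none of these calls held in every fit that left out a library. Zfp941, a KRAB protein of 9 fingers, had 2.23, 2.55 and 3.03 FPKM in WT, against 5.18, 4.31 and 4.27 FPKM in cKO, a 1.76-fold rise (log2 fold change 0.64, SE 0.13, limma adjusted p = 0.0171). Zfp366 encodes DC-SCRIPT, a transcriptional regulator known from dendritic cells, and had 1.55, 1.59 and 1.12 FPKM in WT, against 2.60, 2.27 and 2.85 FPKM in cKO, a 1.81-fold rise (log2 fold change 0.56, SE 0.13, adjusted p = 0.0244). In both genes the lowest cKO value lay above the highest WT value. Summed markers of microglia ran from 41.9 to 51.2 FPKM in WT and from 59.4 to 67.9 FPKM in cKO. Of 7 markers, 5 were in the table and tested, and none was at 0. C1qb and Tyrobp rose, where 9.62% of all genes tested rose. Median log2 fold changes were 0.47 for microglia, 0.32 for endothelium, 0.27 for erythroid cells and 0.17 for meninges and mesenchyme. They were 0.22 for radial glia, -0.36 for intermediate progenitors and projection neurons alike, and -0.99 for the ventral telencephalon. The part of these cell types in the rise of Zfp366 was not tested. Zfp931 rose 1.39-fold (11.2 ± 1.18 to 15.5 ± 1.29 FPKM, adjusted p = 0.0262) and Zfp316 rose 1.27-fold (15.4 ± 0.363 to 19.6 ± 1.21 FPKM, adjusted p = 0.0267).

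**Figure D2:**
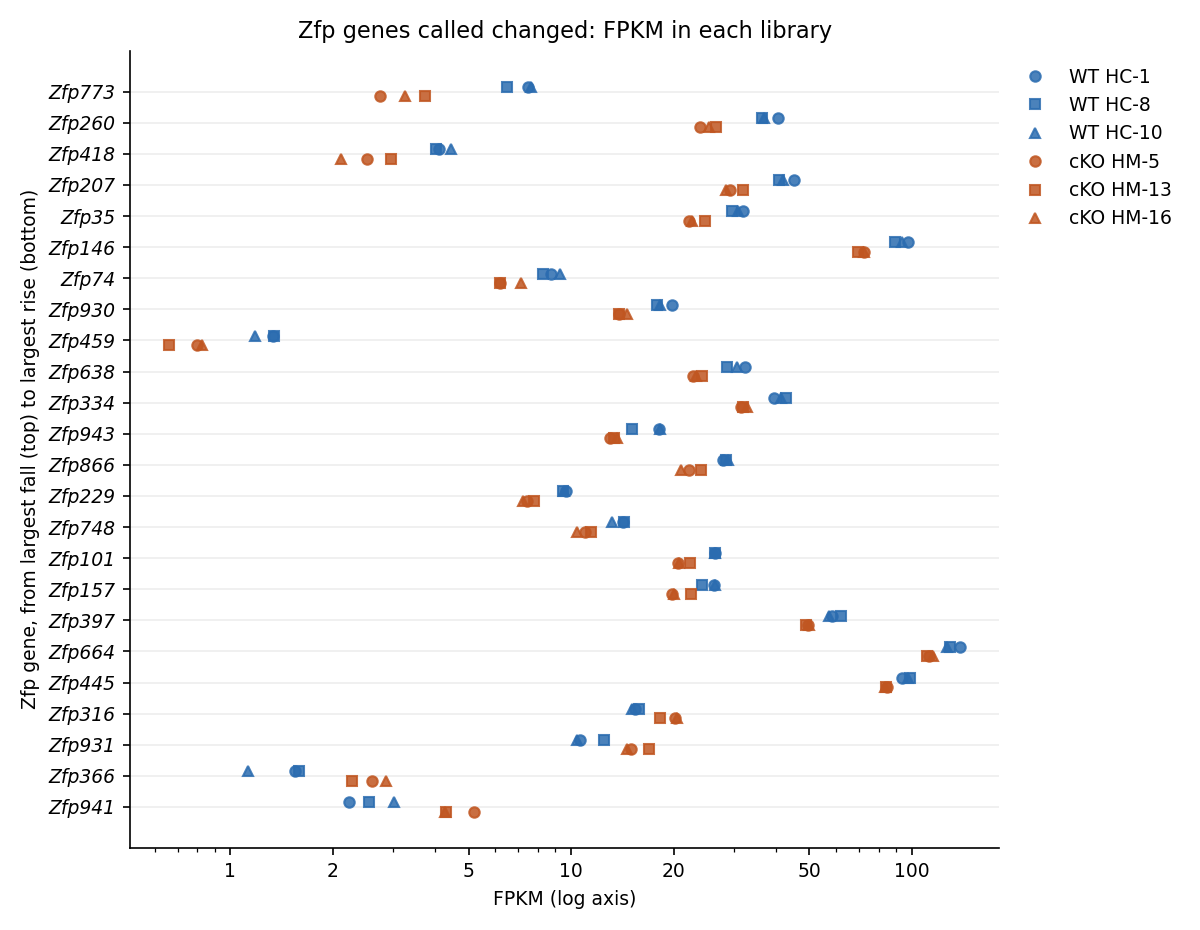
FPKM in each of the 6 libraries (log axis) for the 24 Zfp genes called, ordered by log2 fold change on the log2(FPKM + 1) scale, from the largest fall at the top to the largest rise at the bottom. Blue symbols are WT libraries and orange symbols cKO libraries; the groups do not overlap in any row, and the gap is widest for Zfp773.

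The share of genes that fell was highest among the Zfp genes with the highest levels, and all other genes showed the same order. Of the 32 Zfp genes with a mean of at least 20 FPKM, 12 fell (37.5%), 0 rose and 29 lay below 0 on the log2 scale (median -0.16). Of the 3123 other genes at that level, 16.2% fell, 8.52% rose and 60.3% lay below 0, and the median was -0.06. Between 5 and 20 FPKM, 6 of 88 Zfp genes fell (6.82%) and 2 rose (2.27%), with a median of -0.11. Of the 2461 other genes there, 5.93% fell and 13.2% rose, with a median of 0.04. Under 5 FPKM, 2 of 70 Zfp genes fell (2.86%) and 2 rose (2.86%), with a median of -0.03. Of the 3585 other genes there, 3.15% fell and 8.51% rose, with a median of 0.02. The 5 Zfp genes with the highest means were Zfp36l1, Zfp664, Zfp445, Zfp706 and Zfp146. Zfp664, a protein of 9 fingers without a KRAB domain, had 139, 130 and 127 FPKM in WT, against 113, 111 and 115 FPKM in cKO (85.5% of WT, adjusted p = 0.0347). Its groups did not overlap, but the call was lost whichever library was left out. Zfp706 had 92.8 ± 4.64 FPKM in WT, against 82.6 ± 4.89 FPKM in cKO and was not called (adjusted p = 0.130).

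**Figure D3:**
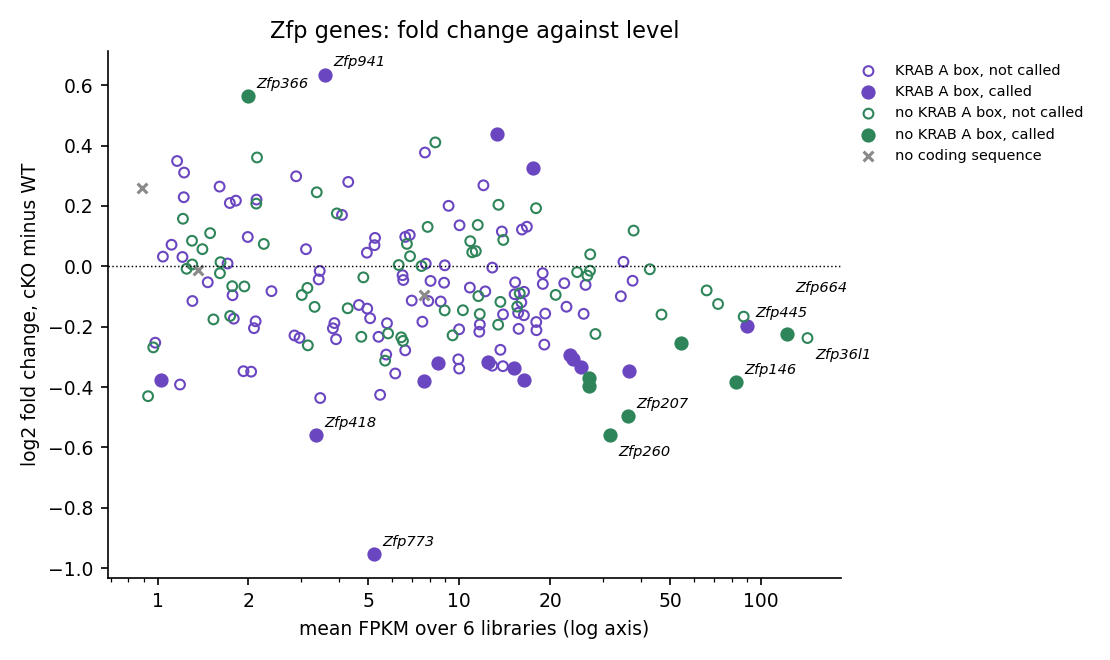
Log2 fold change (cKO minus WT, log2(FPKM + 1) scale) of the 190 Zfp genes tested against their mean FPKM over 6 libraries (log axis). Purple marks genes with a KRAB A box and green those without, filled symbols are genes called and crosses are 3 genes without a coding sequence. At 20 FPKM and above, 29 of 32 points lie below 0 and no filled symbol lies above it.

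The genes were then split by protein class. A KRAB A box was found by a sequence profile in 131 of the 232 Zfp genes with a coding sequence. Of the 114 of these tested, 13 fell (11.4%) and 3 rose (2.63%), with a median log2 fold change of -0.11. Of the 73 tested genes without the box, 7 fell (9.59%) and 1 rose (1.37%), with a median of -0.07. Over all genes tested, 8.39% fell and 9.62% rose, which is also the background for the finger and family counts below. A plain sequence pattern found the box in only 90 genes. By it, 10 of 81 tested genes with the box fell (12.3%) and 2 rose, with a median of -0.099. Of 106 without it, 10 fell (9.43%) and 2 rose, with a median of -0.092. KRAB proteins had a median of 12 fingers and the others 7. Genes for proteins of 12 or more fingers had the lowest median, -0.17, with 57 of 74 below 0, 11 fallen and 1 risen. The median was -0.02 for 6 to 11 fingers (74 tested, 6 fallen, 3 risen) and -0.10 for fewer than 6 (39 tested, 3 fallen, 0 risen). No test was made between these classes. Other zinc finger families did not show more lower than higher calls: among 18 Zbtb genes 2 rose and 0 fell (median 0.11), and among 14 Klf and Sp genes 2 rose and 0 fell (median 0.23). None of 9 Zscan and Zkscan genes (median 0.03) or of 9 Zfhx, Zeb and Zic genes (median -0.04) was called by limma (0 and 2 had an unadjusted p under 0.05). Opposite-strand genes with such symbols were left out, a choice made after the families were seen.

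Members of known function were taken from a list of 33, of which 19 were in the table and 17 were tested. Of these, 2 fell, Zfp207 and Zfp445, and 0 rose, where 8.39% of all genes tested fell and 9.62% rose. Zfp445 and Zfp57 encode the KRAB proteins that hold DNA methylation at imprinting control regions. Zfp445 had 93.4, 98.7 and 97.4 FPKM in WT, against 84.4, 84.2 and 83.6 FPKM in cKO, or 87.1% of the WT mean (log2 fold change -0.20, SE 0.05, limma adjusted p = 0.0398). This was the smallest fall called, the groups were apart, and the call was lost whichever library was left out. Zfp57 had 19.9 to 22.8 FPKM across the WT libraries, against 14.7, 19.8 and 17.6 FPKM in HM-5, HM-13 and HM-16. Its highest cKO value lay just under its lowest WT value, and it was not called (adjusted p = 0.16). Zfp809, which directs silencing of murine retroviruses, had 3.16 ± 0.605 FPKM in WT, against 2.53 ± 0.344 FPKM in cKO (adjusted p = 0.301).

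Among genes of neural development and chromatin, none was called. Zfp462, a heterochromatin regulator with 33 fingers, had 67.9 ± 4.61 FPKM in WT, against 64.3 ± 6.65 FPKM in cKO (adjusted p = 0.576). Zfp423, which encodes a partner of EBF factors with 27 fingers, had 3.26 ± 0.76 and 3.01 ± 0.174 FPKM (adjusted p = 0.773). Its relative Zfp521, with 2 RefSeq mRNAs, was not tested, at 0.636 ± 0.244 and 0.580 ± 0.186 FPKM. Zfp536, a repressor of neuronal differentiation, had 2.17 ± 0.311 and 2.33 ± 0.297 FPKM (adjusted p = 0.721). Zfp503, known as Nolz1 and for its role in striatal progenitors, was uneven, at 6.84, 9.31 and 4.52 FPKM in WT, against 8.501, 5.95 and 14.9 FPKM in cKO (adjusted p = 0.415). The groups overlapped, and HM-16 held the highest value. The summed level of 3 markers of the ventral telencephalon (Gsx2, Dlx2 and Gad2) was uneven too, from 4.52 to 45.5 FPKM in WT and from 1.46 to 18.2 FPKM in cKO. Zfp410, an activator of the NuRD gene Chd4 with 4 RefSeq mRNAs, had 1.23 ± 0.172 FPKM in WT, against 1.37 ± 0.211 FPKM in cKO (adjusted p = 0.664).

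The partners Zfp592, Zfp687 and Zfp532, which form the Z3 complex, were followed together. Zfp592 had 13.5 ± 0.702 and 14.5 ± 1.16 FPKM in WT and cKO, Zfp687 had 2.69 to 3.46 and 3.36 to 4.28 FPKM, and Zfp532 had 4.51 ± 0.292 and 4.03 ± 0.723 FPKM. All overlapped between the groups and none was called (adjusted p from 0.225 to 0.529). Zfp36l1, an mRNA decay factor and the Zfp gene with the highest mean, had 170, 159 and 135 FPKM in WT, against 135, 112 and 146 FPKM in cKO, with overlapping groups (adjusted p = 0.203). Its relative Zfp36l2 had 26.8 ± 2.00 and 27.6 ± 2.81 FPKM (adjusted p = 0.802). The RNA-binding members Zfp326 and Zfp106 differed little, at 4.87 ± 0.202 against 4.75 ± 0.80 FPKM (adjusted p = 0.863) and 43.0 ± 0.775 against 42.7 ± 2.75 FPKM (adjusted p = 0.937). Zfp91, a ubiquitin ligase, had 49.5 ± 1.82 FPKM in WT, against 44.2 ± 1.41 FPKM in cKO without overlap and was not called (adjusted p = 0.108). Zfp148, a widely expressed factor that binds GC-rich DNA, stayed under the filter, at 1.11 ± 0.16 and 0.875 ± 0.0452 FPKM. It has 3 RefSeq mRNAs, so its row may not show the level of the whole gene.

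Many of the genes lie side by side. Joining Zfp genes whose starts lie at most 250 kb apart gave 16 groups of 3 or more, with 94 members in all, and chromosome 7 alone carries 56 of the 235 genes. Of the 77 grouped genes tested, 13 fell (16.9%) and 0 rose, with a median log2 fold change of -0.11. Of the 113 others tested, 7 fell (6.19%) and 4 rose (3.54%), with a median of -0.07. Over all genes tested, 8.39% fell and 9.62% rose. No test was made between grouped and other Zfp genes. The fallen genes were spread over 7 groups, and 15 of the 16 group medians lay below 0.

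Neighbours did not move as a block. On chromosome 7 from 7114690 to 7209998, Zfp773 and Zfp418 fell (log2 fold changes -0.95 and -0.56), while Zfp954 and Zfp772 on either side of them had values of 0.12 and 0.20 and were not called. On the same chromosome from 29768552 to 30169750, 8 of 10 Zfp genes were tested. Zfp260, Zfp146 and Zfp74 fell, while Zfp382 and Zfp940 had values of 0.27 and 0.22 and were not called. On chromosome 17 from 21488998 to 22166190, Zfp229 and Zfp943 fell among 8 tested, and Zfp942, whose start lies next to that of Zfp943, had a value of -0.21 without a call (adjusted p = 0.104). A group on chromosome 13 from 67038596 to 67792512 held 15 genes, all with a KRAB box. Of the 12 tested, 9 lay below 0 and Zfp459 and Zfp748 fell.

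Start regions of the fallen genes were compared letter by letter, using RefSeq promoter windows (GRCm38.p6). A window was given for 189 of the 235 Zfp genes and for 17 of the 20 that fell. The letters ACTACA followed by 3 free bases and CCC, searched on both strands in the 250 bases before each start, belong to the known motif of the activator ZNF143 (Staf), and they were chosen after these sequences were seen. They occur in 1.92% of 32851 windows of that length in the whole table, in 3.84% of windows of all other tested genes and in 16.8% of 232 Zfp windows. Among the fallen genes 7 of 17 windows hold them (41.2%), against 21 of 164 windows (12.8%) of tested Zfp genes that were not called and 0 of 3 windows of risen genes. Because the letters were picked with the windows of fallen genes in view, that choice favours this difference. The 7 are Zfp773, Zfp418, Zfp260, Zfp146, Zfp74, Zfp334 and Zfp748. The first 4 and Zfp334 are printed because they belong to the genes with the largest or most stable falls, and Zfp941, the risen gene with the smallest p, is printed beside them as one without the letters. Each line gives the 150 bases before the start, from 5′ to 3′ on the gene's own strand, and capitals mark the motif or its reverse complement.
Zfp773: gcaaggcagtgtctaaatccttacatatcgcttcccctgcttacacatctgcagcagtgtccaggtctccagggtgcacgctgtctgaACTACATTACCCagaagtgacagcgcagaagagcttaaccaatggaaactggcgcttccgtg
Zfp418: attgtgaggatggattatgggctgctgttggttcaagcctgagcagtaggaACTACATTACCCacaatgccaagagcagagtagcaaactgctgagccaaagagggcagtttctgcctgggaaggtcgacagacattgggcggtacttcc
Zfp260: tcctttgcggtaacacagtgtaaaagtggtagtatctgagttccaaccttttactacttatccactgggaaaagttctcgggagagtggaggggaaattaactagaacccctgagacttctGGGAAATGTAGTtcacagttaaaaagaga
Zfp146: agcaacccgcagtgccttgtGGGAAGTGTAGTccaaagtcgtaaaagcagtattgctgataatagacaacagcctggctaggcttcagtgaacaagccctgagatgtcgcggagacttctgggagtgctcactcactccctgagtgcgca
Zfp334: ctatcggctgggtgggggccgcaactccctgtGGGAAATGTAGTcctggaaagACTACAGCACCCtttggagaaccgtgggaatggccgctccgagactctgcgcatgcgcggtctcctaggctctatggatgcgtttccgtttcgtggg
Zfp941: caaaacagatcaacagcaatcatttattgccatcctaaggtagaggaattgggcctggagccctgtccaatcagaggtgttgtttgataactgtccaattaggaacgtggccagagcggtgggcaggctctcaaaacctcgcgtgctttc

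The windows are chr7:7136756-7136905 on the minus strand for Zfp773, chr7:7171203-7171352 on the plus strand for Zfp418, chr7:30094926-30095075 on the plus strand for Zfp260 and chr7:30169742-30169891 on the minus strand for Zfp146. Those of Zfp334 and Zfp941 are chr2:165388260-165388409 and chr7:140822179-140822328, both on the minus strand. The motif begins 62 bases before the RefSeq start of Zfp773, 99 before Zfp418, 29 before Zfp260 and 130 before Zfp146. GENCODE places the start of Zfp260 at 30094777, before this whole window, so by that annotation the motif lies after the start. The same holds for Zfp748, whose window is not printed. Zfp334 holds it 2 times, 118 and 97 bases before its start, on opposite strands. Zfp773 and Zfp418, which are neighbours, share the whole of it including the bases left free. Zfp260 and Zfp334, which lie on different chromosomes, also share a whole copy, the one 118 bases before the start of Zfp334.

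Of the 27 tested Zfp genes with the letters in at least 1 window, 7 fell and 0 rose, and the median log2 fold change was -0.13. Of the 127 without, 10 fell and 3 rose, with a median of -0.07. The choice of letters from the windows of fallen genes favours this difference too. Among the 7 that fell, Zfp773 and Zfp418 share a group of neighbours, and Zfp260, Zfp146 and Zfp74 share another. Among the other tested genes, 7.92% of the 265 with the letters fell and 6.79% rose, with 54.3% below 0 and a median of -0.03. Of the 5848 without them, 8.89% fell and 11.1% rose, with 50.1% below 0 and a median of -0.0004. The matches are descriptions of sequence, and binding was not measured. The other 3 motifs were searched the same way, and none of the 4 holds another. The ETS letters CCGGAAG were in 15.5% of Zfp windows and 0 of 17 windows of fallen genes. They were in 6.91% of all windows and in 13.9% of windows of all other tested genes. The NRF1 core GCATGCGC was in 5.17% and 1 of 17 (2.26% of all, 4.76% for other tested genes). The YY1 letters AAGATGGC were in 2.16% and 1 of 17 (1.56% of all, 2.02% for other tested genes). For these 3 motifs the Zfp shares lay near those of other tested genes.

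The corepressor that KRAB proteins recruit was followed through a list of 30 genes, of which 24 were in the table and 18 were tested. Of these, 4 fell and 1 rose, where 8.39% and 9.62% of all genes tested did so. The 4 that fell had high levels, with means of 52.8 to 517 FPKM over all libraries. The only other tested genes of the list with means of at least 20 FPKM were Trim28 and Morc3, and neither was called. Morc3 lies outside the rule for named genes and is named for its level. Of the 3123 genes outside the Zfp list with means of at least 20 FPKM, 16.2% fell and 8.52% rose. Trim28, the scaffold itself, had 452, 452 and 443 FPKM in WT, against 405, 351 and 446 FPKM in cKO. The groups overlapped through HM-16, HM-13 held the lowest value, and the gene was not called (limma adjusted p = 0.224). Setdb1 was under the filter, at 0.586 ± 0.0714 FPKM in WT, against 0.571 ± 0.178 FPKM in cKO. It has 3 RefSeq mRNAs, and symbols with 2 or more had a median of 1.90 FPKM, against 10.4 FPKM for those with 1. Its low value may therefore not show the level of the whole gene.

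The fallen genes of the corepressor list act at other steps. Cbx3 and Cbx1 encode the HP1 proteins gamma and beta, which bind methylated histone H3. Cbx3 had 411 ± 33.4 FPKM in WT, against 321 ± 13.1 FPKM in cKO (78.1%, adjusted p = 0.0186), and Cbx1 had 58.3 ± 4.41 and 47.2 ± 2.95 FPKM (80.9%, adjusted p = 0.0379). Chd3, a NuRD remodeller that binds TRIM28, had 93.0 ± 1.41 and 74.1 ± 6.25 FPKM (79.7%, adjusted p = 0.0203). Sumo2, which encodes a modifier attached to TRIM28, had 606 ± 42.0 and 427 ± 28.5 FPKM (70.4%, adjusted p = 0.00716), and it was the only gene of this list whose call held without any single library. Pias1, a SUMO ligase, was the gene that rose, 1.24-fold (adjusted p = 0.0476), and its call was lost whichever library was left out.

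**Figure D4:**
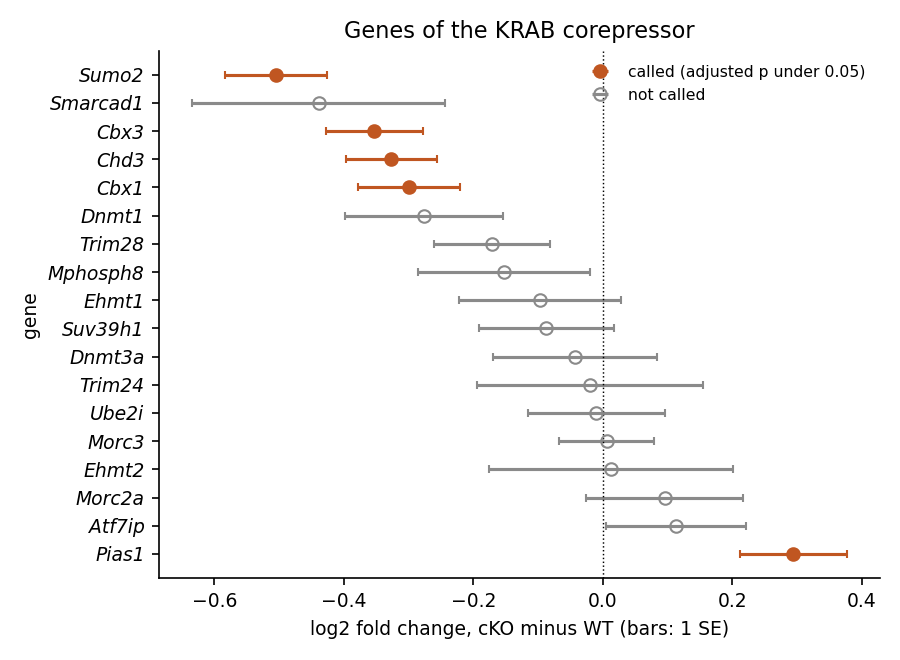
Log2 fold change (cKO minus WT, log2(FPKM + 1) scale) with 1 SE for the 18 tested genes of the KRAB corepressor list, sorted by value. Filled symbols are genes called: Sumo2, Cbx3, Chd3 and Cbx1 lie below 0 and Pias1 above 0, while Trim28 is open.

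The authors' deposited table gives its own fold change and FDR, and 198 Zfp symbols have an FDR there. By that FDR, 24 Zfp genes were lower in cKO and 5 higher under 0.05, where 9.43% and 11.5% of 8925 symbols with an FDR were lower and higher. Of the 24 Zfp genes called here, 23 had an FDR under 0.05 in the authors' deposited table with the same sign, Zfp459 being the exception.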

How the data were processed

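Total RNA of 6 cortex libraries was sequenced. The submitters' processing notes name build mm10, STAR 2.5.4b, featureCounts 1.6.1, DESeq2 1.22.1, R 3.4.1 and bcl2fastq 1.8.4. Not given in the sources used here are the counting annotation and the row filters. Per the file headers, the deposited table of 14379 rows holds FPKM for 6 columns, with the authors' mean normalized count (a signal), their p-value and FDR, and their log2 fold change. The columns HC and HM were read as WT and cKO from their letters alone, and libraries go by column name because replicate numbers could not be matched. Each symbol was represented by its row with the highest mean normalized count. From FPKM and that mean, 100% of values came out as whole reads, within 0.001 of a read.

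Genes with at least 1 FPKM in at least 3 libraries (9359) entered limma 3.58.1 (R 4.3.3) as log2(FPKM + 1), with a trend of variance on level, group as the only term and Benjamini-Hochberg adjustment over all of them. The pseudocount makes fold changes of low genes too small; percentages of WT carry none. The design allowed for counts, and its route for normalized values was used. The fit was tested on simulated data. Alternatives were other pseudocounts, filters, scalings, voom on recovered reads, summed rows and leaving out each library.

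Positions come from GENCODE M21 (GRCm38), which held all 235 genes. Fingers (C-N2 to 4-C-N12-H-N3 to 5-H) and KRAB boxes were found in translated coding sequences of that annotation, the profile with pyhmmer 0.12.3 (E-value 0.001), added after the pattern's result was seen. Start regions are RefSeq's. Named genes are the 12 with the smallest p among those called in each direction, the 5 with the highest mean, members of a list of known roles, and called corepressor genes. The members, lists and tests were chosen with earlier results of these data known.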

Additional observations from a re-analysis of the deposited data

How the results depend on the processing

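Over the alternatives and 48 named genes, 613 values kept direction and side of the threshold, 139 lost the call, 1 gained it and 15 changed sign. Those 15 belong to 7 genes that were not called: Zfp462 (-0.14 to 0.0037 without 1 library, 0.0039 with voom without HM-13), Zfp410 (-0.16 with rows summed), Zfp423 (-0.22 to 0.040 without 1 library), Zfp592 (-0.00096 with library totals, -0.0021 with quantile normalization), Zfp36l2 (-0.052 with library totals, -0.018 to 0.12 without 1 library), Zfp326 (-0.15 to 0.026 without 1 library, 0.015 with voom without HM-13) and Zfp106 (-0.049 to 0.041 without 1 library, 0.041 with voom without HM-13). The count of Zfp genes called (4 higher and 20 lower) was 0 and 1 with FPKM scaled to library totals (3.22% and 2.1% of all genes), and 0 to 3 and 4 to 20 without 1 library, given above for each. Quantile normalization gave 3 and 30 (9.73% and 9.84% of all genes), voom 5 and 27 (11.2% and 9.26%), and no filter 4 and 18 (7.61% and 6.06%). Of the 24 calls, 4 were lost in no such fit, 16 in some and 4 in all 6, with a highest adjusted p of 0.148; fits without a library have fewer samples. The median log2 fold change of Zfp genes (-0.095) was -0.067 with a pseudocount of 5, -0.078 with no filter, -0.18 with library totals (-0.084 for other genes), -0.14 with quantile normalization, -0.12 with voom without HM-13, and -0.12 to -0.080 without 1 library. The corepressor list (1 higher, 4 lower) gave 0 higher with no filter, with library totals, with quantile normalization, with voom without HM-13 and without any 1 library, and 0 lower with library totals and 1 to 3 lower without 1 library. Library totals count the Rn45s reads, so that scaling lowers the values of HM-13. The part of Rn45s and the cause of the other changes were not tested. No paired analysis was possible because the columns carry no replicate numbers that match the labels. Genes with few reads, such as Zfp459 (19 to 57 reads), are limited by depth.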
